A study of Sus scrofa with 8 samples.

Results

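The 5 genes SULT2A1, SULT1E1, SULT1A1, HSD11B1 and HSD11B2 of steroid sulfation and glucocorticoid conversion were examined in the testes of boars on 2 diets. The SULT genes code for sulfotransferases, and the HSD11B genes for the enzymes that interconvert cortisone and cortisol. The genes were chosen by name. Their probes are those of the Agilent porcine array that are not controls and whose accession belongs to one of the 5 genes in the RefSeq gene table of the pig, or that the supplementary gene table of the study names so, which it did for 0 of them. All 5 genes had a probe, and together they had 10 of the 43603 probes. SULT1A1 had 4 probes, SULT2A1 and HSD11B1 had 2 each, and SULT1E1 and HSD11B2 had 1 each, every probe on 1 spot. The accession of the SULT1A1 probes carries the symbol SULT1A3 in that table and SULT1A1 as a synonym. Whether these probes also bind RNA of near-identical paralogs was not tested.

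Large White boars of the F0 generation were fed from 1 to 10 months of age, either with a control diet or with that diet plus methionine, choline, betaine, folate and the vitamins B6 and B12. RNA of testis tissue was hybridized to 1 array per boar with a single dye, for 4 boars on each diet. The supplemented boars were m_9597, m_9599, m_9499 and m_9527, and the control boars were m_9598, m_9600, m_9502 and m_9528. The boars m_9597, m_9598, m_9599 and m_9600 were full brothers and shared slide 1, and the other 4 boars shared slide 2, and being brothers cannot be told apart from slide 1. The study allotted the boars to the diets at random within litter. The other 4 boars came from more than 1 litter and were treated as 1 group here. The main test had no term for litter.

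The sulfotransferases move a sulfate group from the donor PAPS onto a hydroxyl group. A sulfated steroid no longer binds its receptor, dissolves better in water and can be carried in blood as a store, from which sulfatases free the hormone again. The boar testis is known for its large output of sulfated androgens, androstenes and estrogens from the Leydig cells. HSD11B1 mostly makes cortisol from cortisone and HSD11B2 makes cortisone from cortisol, so that both together set how much active glucocorticoid reaches a Leydig cell.

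The values below are log2 intensities, quantile-normalized over the arrays and not background-subtracted, so that differences of dim probes are understated. The level of one probe cannot be set against that of another probe, since probes bind with different strength. The median signal of the arrays lay between 108 and 192.5, which was 4.91 to 7.40 times the local background. Between 76.3% and 86.5% of the spots of an array were well above background, with a median of 76.8% for the supplemented and 82.6% for the control boars. The supplemented boars took places 1 and 3 and the control boars places 2 and 4 of both slides, which leaves the place on the slide inseparable from the diet (they cannot be told apart). A probe was taken as present where at least 2 of the 4 boars of a diet had a signal above 25 and well above background, which held for 36982 probes. Each of the 10 probes was well above background on all 8 arrays.

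No probe of the 5 genes differed between the diets beyond the spread between boars. Of the 10 probes, 0 had a limma P under 0.05, against 1.86% of all present probes, and in 10 of 10 the boars of both diets overlapped, whereas 1.13% of the present probes had diets that did not overlap. The adjusted P lay between 0.84 and 0.876, and the smallest adjusted P of any present probe on the array was 0.476. An exact permutation test over the 8 boars gave a two-sided P between 0.171 and 0.6, where 0.0286 is the smallest that 4 against 4 boars allow. It exchanged boars between litters, although the diets had been allotted within litter, so its P do not follow the allotment. The 4 probes of SULT1A1 and the probe of HSD11B2 had the higher mean on the supplemented diet, and those of SULT2A1, SULT1E1 and HSD11B1 the lower mean. In bulk tissue, fewer cells of a type and less RNA per cell cannot be told apart.

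SULT2A1, which sulfates hydroxysteroids such as dehydroepiandrosterone and androstenol, had the largest difference of the 5 genes and also the largest spread. With probe A_72_P149981 the supplemented boars m_9597, m_9599, m_9499 and m_9527 had 12.29, 12.29, 13.87 and 11.36, and the control boars m_9598, m_9600, m_9502 and m_9528 had 13.49, 13.33, 12.57 and 13.16. Thus 3 of the 4 supplemented boars lay below every control boar and the fourth, m_9499, above every control boar. The signal was 60.5 to 612 times the local background of the spot. The supplemented mean was 12.45 ± 1.04 (SD, n = 4) and the control mean 13.14 ± 0.40 (SD, n = 4). The log2 difference, supplemented minus control, was -0.68 with a standard error of 0.46, a 1.61-fold lower mean, with a 95% confidence interval from -1.71 to 0.35 and an adjusted P of 0.84 in limma. Among all present probes, 2.81% differed at least as much in either direction, and the median size of the difference was 0.17.

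Probe A_72_P165406 of SULT2A1 also put m_9499 highest, whereas its lowest boar was m_9597 and not m_9527. The supplemented boars had 13.97, 14.15, 15.70 and 14.05 in the same order, and the control boars had 15.31, 15.47, 14.71 and 14.54. Again 3 supplemented boars lay below and m_9499 above all controls, and the spots were 489 to 2430 times as bright as their background. Here the log2 difference was -0.54, with a standard error of 0.39 and a 95% confidence interval from -1.42 to 0.33. Over the 8 boars the 2 probes had a Pearson correlation of 0.88, as a description over shared arrays. The supplemented boars spread more than the controls with both probes, with an SD of 0.82 against 0.45 for A_72_P165406. Without m_9499 the differences were -1.16 for A_72_P149981 and -0.95 for A_72_P165406, with an adjusted P of 0.888 for both. Without m_9527, the lowest boar with A_72_P149981, they were -0.32 and -0.41.

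SULT1E1 codes for the estrogen sulfotransferase, which inactivates estradiol and estrone. Its probe A_72_P035876 was dim, with a signal of 1.59 to 7.13 times the local background. The supplemented boars m_9597, m_9599, m_9499 and m_9527 had 6.55, 6.34, 6.09 and 6.32, and the control boars m_9598, m_9600, m_9502 and m_9528 had 6.94, 6.48, 5.92 and 7.33. The controls m_9502 and m_9528 were the lowest and the highest of all boars, and the supplemented boars lay between them. All 4 supplemented boars were below the control mean, and the SD was 0.19 for the supplemented and 0.61 for the control boars. Supplemented minus control was -0.35 on the log2 scale, with a standard error of 0.28, a 95% confidence interval from -0.97 to 0.28 and an adjusted P of 0.84. It was -0.60 without m_9502, with an adjusted P of 0.28, and -0.13 without m_9528.

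SULT1A1 is the phenol sulfotransferase, which handles small phenols, catechols and, less readily, estrogens. Its probe A_72_P282179 read 13.03, 12.90, 12.63 and 13.92 in the supplemented boars m_9597, m_9599, m_9499 and m_9527, and 12.36, 13.31, 13.04 and 12.20 in the control boars m_9598, m_9600, m_9502 and m_9528. The supplemented boar m_9527 was the highest of all 8, and the other 3 lay within the range of the controls. The signal was 195 to 437 times the local background. The means were 13.12 ± 0.56 (SD, n = 4) and 12.73 ± 0.53 (SD, n = 4). Supplemented minus control was 0.39 on the log2 scale, with a standard error of 0.33 and a 95% confidence interval from -0.34 to 1.13.

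The other probes of SULT1A1 gave differences of like size. Probe A_72_P429764 had the smallest limma P of the 10 probes, 0.135, with an adjusted P of 0.84. With it the supplemented boars had 10.11, 9.98, 9.39 and 10.62 and the control boars 9.08, 9.89, 9.85 and 9.46. Here 3 supplemented boars were above every control boar, and m_9499 was below all controls but m_9598. The log2 difference was 0.45, or 1.37-fold, with a standard error of 0.28 and a 95% confidence interval from -0.17 to 1.08. For A_72_P211982 and A_72_P223957 the differences were 0.42 and 0.46, each with a standard error of 0.31. The boars ranged from 12.09 to 13.79 with the first and from 11.96 to 13.76 with the second probe, and with both m_9598 was the lowest and m_9527 the highest boar. The correlations between the 4 probes over the 8 boars ran from 0.90 to 0.98, so the probes report one pattern and are not 4 independent measurements. Without m_9527 the 4 differences were 0.13 to 0.26, and 0.26 to 0.29 without m_9598.

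HSD11B1, the reductase that makes cortisol, differed little between the diets. Its brighter probe A_72_P035496, at 51.1 to 143 times the local background, read 11.19, 10.83, 10.80 and 10.40 in the supplemented boars m_9597, m_9599, m_9499 and m_9527. The control boars m_9598, m_9600, m_9502 and m_9528 had 11.30, 11.09, 10.30 and 11.17. Every supplemented boar lay within the range of the controls, which the control m_9502 set at its lower end. The log2 difference was -0.16 with a standard error of 0.25, a 95% confidence interval from -0.72 to 0.40 and an adjusted P of 0.876. The interval thus held a 1.32-fold higher mean at one end and 0.606 times the control mean at the other.

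The dimmer HSD11B1 probe A_72_P006061, at 3.11 to 14.1 times background, had a larger difference of -0.34 with a standard error of 0.28. Its supplemented boars had 7.28, 7.11, 7.28 and 6.47 and its control boars 7.65, 7.54, 6.60 and 7.73 in the same orders. All 4 supplemented boars lay below the control mean of 7.38, but 3 of them above the control m_9502. The difference was -0.60 without m_9502, with an adjusted P of 0.279, and -0.16 without m_9527. For A_72_P035496 it was -0.38 and -0.02 without the same boars. The 2 probes had a correlation of 0.93 over the 8 boars.

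HSD11B2, the dehydrogenase that inactivates cortisol and so shields the mineralocorticoid receptor, was read by probe A_72_P165121 at 7.44 to 23.2 times background. The supplemented boars m_9597, m_9599, m_9499 and m_9527 had 9.16, 8.30, 8.47 and 8.42. The control boars m_9598, m_9600, m_9502 and m_9528 had 8.93, 8.57, 7.39 and 8.33. The control m_9502 was the lowest of all boars, and the remaining boars of both diets were mixed. This gave a log2 difference of 0.28 with a standard error of 0.33, a 95% confidence interval from -0.45 to 1.01 and an adjusted P of 0.848. Without m_9502 it was -0.02, so the higher supplemented mean rests on this boar, and without m_9597 it was 0.09.

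**Figure D1:**
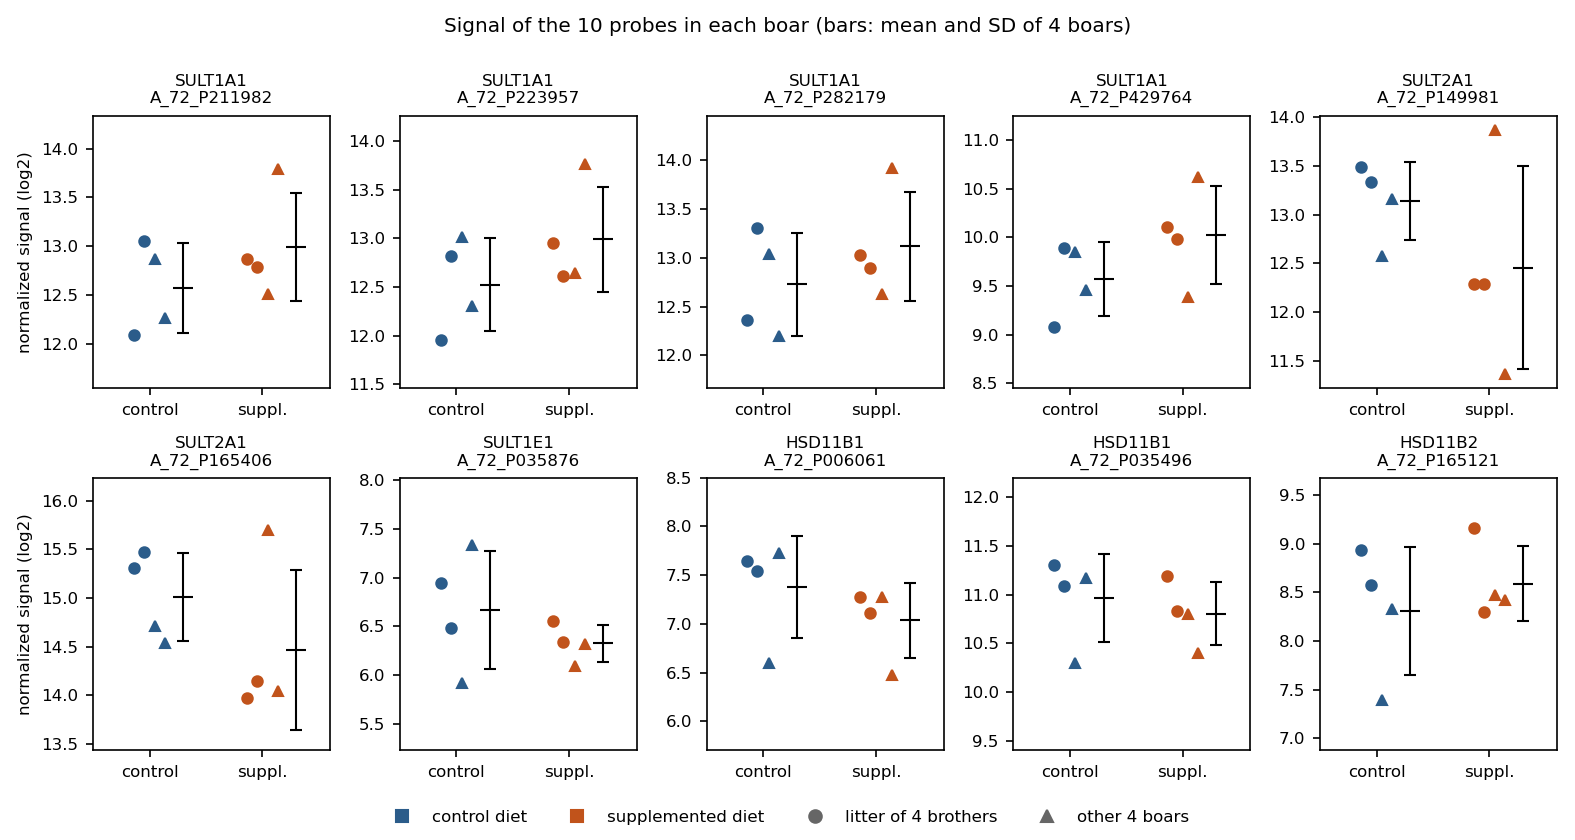
Normalized log2 signal (vertical axis) of each of the 10 probes in the 8 boars, by diet, with circles for the litter of 4 brothers, triangles for the other 4 boars and bars for the mean and SD of 4 boars. The boars of both diets overlap in every panel, and for SULT2A1 3 supplemented boars lie below the controls and m_9499 above them.

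Each slide held 2 boars of either diet, so the diets were also compared on each slide by itself. The log2 difference had the same sign in both for 8 of the 10 probes, and for 61.1% of all present probes. For SULT2A1 it was -1.33 among the brothers and 0.24 among the other 4 boars with probe A_72_P165406. With probe A_72_P149981 it was -1.12 and -0.25. Among the brothers alone, the adjusted P in limma was 0.192 for A_72_P165406 and 0.234 for A_72_P149981. The brothers on the supplemented diet, m_9597 and m_9599, lay below both control brothers with either probe, whereas among the other 4 boars m_9499 was the highest and the diets overlapped. The interaction of diet and litter was -1.58 for A_72_P165406, with a standard error of 0.68 and an adjusted P of 1.0 in limma, and -0.88 for A_72_P149981, with a standard error of 1.0 and the same adjusted P. Without m_9499 the interaction was -0.75 for A_72_P165406 and 0.38 for A_72_P149981, and without m_9527 it was -2.40 for A_72_P165406, with an adjusted P of 0.595. The difference in SULT2A1 between the litter groups thus did not pass the test. With an interaction P under 0.05 there were 0 of the 10 probes, against 2% of all present probes.

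The 4 SULT1A1 probes differed by 0.13 to 0.56 among the brothers and by 0.35 to 0.66 among the other boars. HSD11B1 was lower on the supplemented diet in both, by -0.40 and -0.28 with A_72_P006061 and by -0.18 and -0.14 with A_72_P035496. SULT1E1 had -0.27 and -0.43, and HSD11B2 had -0.02 and 0.59. The diets did not overlap for 4 of the 10 probes among the brothers, against 37.1% of all present probes, and for 1 among the other boars, against 22.6%. With 2 boars against 2 the diets often separate by themselves, and neither share stood above that of the whole array by more than 1 probe.

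**Figure D2:**
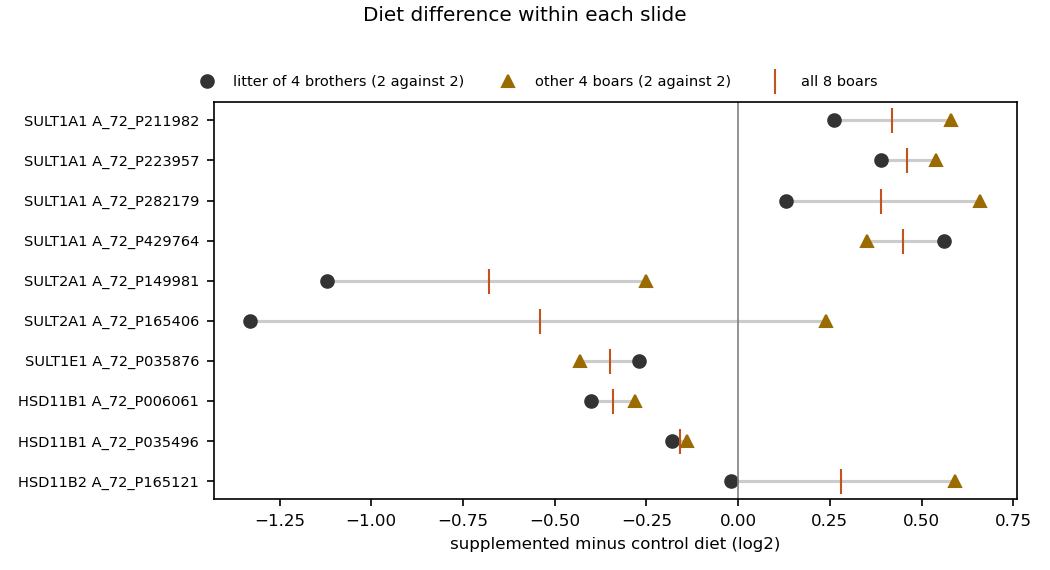
Diet difference, supplemented minus control (horizontal axis, log2), of each of the 10 probes among the 4 brothers (circles), among the other 4 boars (triangles) and over all 8 boars (ticks). The 2 values lie farthest apart for SULT2A1 A_72_P165406, at -1.33 and 0.24, and closest for HSD11B1 A_72_P035496, at -0.18 and -0.14.

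Between the litter of brothers and the other 4 boars, 0 of the 10 probes had a limma P under 0.05 with diet in the model, against 8.11% of all present probes, and 0 of the present probes passed adjustment. The brothers had the higher mean of HSD11B2, 8.74 against 8.15, and of HSD11B1 with A_72_P035496, 11.10 against 10.67. The log2 differences were 0.59 with a standard error of 0.28 and 0.44 with a standard error of 0.22, and the adjusted P was 0.628 and 0.633. The lowest of the other boars was m_9502 in both cases, and without it the differences were 0.34 and 0.26. The remaining 8 probes differed by -0.35 to 0.37.

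The partners of the 5 enzymes were taken from 4 lists with 57 genes, of which 12 had a probe. Of their 20 probes 19 were present. At a limma P under 0.05, 1 probe had the lower mean with supplementation and 0 the higher one, against 0.938% higher and 0.925% lower among all present probes, and 0 passed adjustment. The probes of PAPSS2 and TPST1 had a gene name only through the study's gene table, which holds probes picked as differing on these arrays. They entered the lists by that choice, so the count cannot be read against these shares. The median difference was 0.10 over the 19 probes, 0.06 over the 10 probes of the 5 enzymes and 0.00 over all present probes.

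The lower probe was that of PAPSS2, the synthase that makes PAPS, on which every sulfotransferase depends. The study had picked this gene as differing on these samples, so its direction is no independent evidence. The probe is shown because it was the one probe of the lists with a P under 0.05, in the letters of the gene table of the study:
A_72_P241837: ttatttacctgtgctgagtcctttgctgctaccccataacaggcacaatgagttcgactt
With it the supplemented boars m_9597, m_9599, m_9499 and m_9527 had 7.72, 6.87, 7.28 and 7.04, and the control boars m_9598, m_9600, m_9502 and m_9528 had 8.48, 8.09, 7.47 and 8.72. Only the supplemented m_9597 reached above a control boar, m_9502. The log2 difference was -0.96 with a standard error of 0.29 and a 95% confidence interval from -1.60 to -0.31. The exact permutation test, likewise without regard to litter, gave 0.0571. The limma P was 0.00806 and the adjusted P 0.84, so the difference does not pass with all probes of the array taken into account. It was -0.98 among the brothers and -0.93 among the other 4 boars.

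The other partners of sulfation were the anion exchangers SLC26A3, the one gene whose probe was not present, and SLC26A6, with differences of 0.00 and 0.29 for its 2 probes. TPST1 sulfates tyrosines of proteins, not steroids, and had also been picked by the study on these samples. Its probe A_72_P210517 read 6.09, 6.14, 6.02 and 6.01 in the supplemented boars and 5.86, 5.87, 5.73 and 5.78 in the controls, so all supplemented boars lay above all controls. Of all present probes, 1.13% had diets that did not overlap. The TPST1 probe was dim, at 2.0 to 4.03 times the local background. The log2 difference was small at 0.26, with a standard error of 0.12 and an adjusted P of 0.84. The 6 probes of the sulfatase ARSA and of the carriers ABCG2 and SLCO3A1 differed by -0.43 to 0.17.

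On the glucocorticoid side, 9 probes of 5 genes differed by -0.38 to 0.51, with 0 at a P under 0.05. The glucocorticoid receptor NR3C1, to which cortisol binds, had means of 9.02 ± 0.14 (SD, n = 4) and 9.07 ± 0.20 (SD, n = 4) and a difference of -0.05 with a 95% confidence interval from -0.39 to 0.29. It was chosen for mention after its values were seen, as was HSP90AA1, the chaperone that holds the receptor ready for its ligand. The 4 probes of HSP90AA1 pointed in opposite directions, with 0.51 and 0.36 for A_72_P174931 and A_72_P207327 and -0.35 and -0.38 for A_72_P232852 and A_72_P325738. KLF9, which is switched on by glucocorticoids, had 0.17 and 0.23 with its 2 probes.

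**Figure D3:**
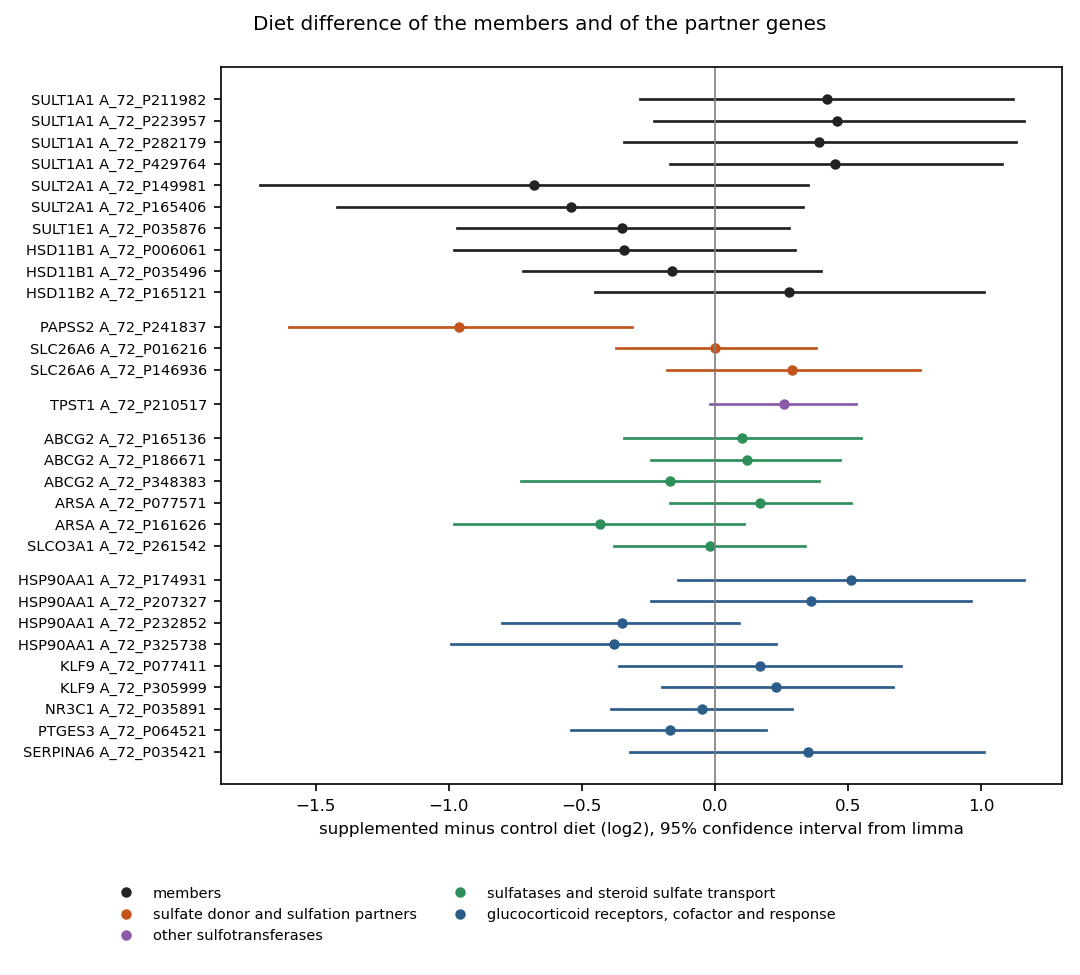
Diet difference, supplemented minus control (horizontal axis, log2), with its 95% confidence interval from limma, for the 10 probes of the 5 enzymes and the 19 present probes of the partner genes, coloured by list. The interval of PAPSS2, from -1.60 to -0.31, leaves out 0, and those of the 10 probes of the 5 enzymes all hold it.

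The 5 enzymes did not all vary together over the boars. With the brightest probe of each gene, SULT1A1 had a Pearson correlation over the 8 boars of -0.60 with HSD11B1, -0.56 with SULT1E1, -0.36 with SULT2A1 and -0.11 with HSD11B2. HSD11B1 had 0.76 with HSD11B2 and 0.76 with SULT1E1, and HSD11B2 had 0.47 with SULT1E1. SULT2A1 had 0.22 with HSD11B1, -0.06 with SULT1E1 and 0.00 with HSD11B2. These are descriptions over 8 arrays that share depth and slide.

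The lists of marker genes of testis cells were read beside the enzymes, as the mean over the probes of a list after taking off the mean of each probe. No defining marker of the labelled tissue was absent among those on the array, with all 8 probes of the Sertoli list, all 9 of the germ cell list and all 15 of the Leydig list present. Since 84.8% of all probes were present, this does not by itself tell testis from another tissue. The Leydig list lay between -0.89 and 0.83 in the supplemented and between -0.11 and 0.38 in the control boars, with 9 of its 11 genes on the array and 0 of the 15 probes at a P under 0.05. The highest boar was m_9499 and the lowest m_9527. INSL3, the insulin-like hormone of Leydig cells, was nearly even at 18.5 to 18.74. Its probe was among the brightest of the marker probes, and quantile normalization brings the highest values of all arrays close together. How even INSL3 was apart from that was not tested. Probe A_72_P185271 of CYP11A1, the first enzyme of steroid synthesis, ran from 9.37 in m_9527 to 12.55 in m_9499. Probe A_72_P173936 of CYP19A1 went the other way, with 10.64 in m_9527 and 10.34 in m_9499. So did A_72_P232317 of CYP19A1 and A_72_P197232 of HSD3B1 between these boars. The remaining probes of the Leydig list were higher in m_9499 than in m_9527. The list of duct epithelium, with 3 of 8 genes on the array and all 7 probes present, lay between -0.95 and 0.35 and between -0.25 and 0.91. Macrophage markers lay between -0.06 and 0.57 and between -0.50 and 0.69, with 6 of 7 probes present. The other 5 lists stayed within -0.53 and 0.39 in all boars.

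SULT2A1, an enzyme of Leydig cells in the boar, ran with the Leydig list. The Pearson correlation was 0.80 over the 8 boars, with an exact permutation P of 0.0148 and 0.074 after adjustment over 10 relations, and Spearman's rho was 0.76, with P 0.0368 and 0.184 after adjustment in the same exact permutation test. Without m_9499 and m_9527, the 2 boars farthest from the median of the list, r was 0.67. Among the 4 brothers it was 0.96 and among the other 4 boars 0.87, whereas it was 0.92 among the 4 supplemented and 0.00 among the 4 control boars. SULT1A1 ran against the list with r of -0.75, an exact permutation P of 0.0339 and 0.113 after adjustment, rho of -0.69 and r of -0.58 without the same 2 boars, and with r of -0.26 among the brothers and -0.88 among the other 4 boars. For HSD11B1 and HSD11B2 r was 0.44 and 0.06. For SULT1E1 it was 0.21, and 0.72 without the same 2 boars, with -0.62 among the supplemented and 0.98 among the control boars.

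SULT1A1 also moved with the brightness of the arrays before normalization. Against the log2 median signal of the array, its probe A_72_P282179 had r of -0.86 over the 8 boars, with an exact permutation P of 0.00489 and 0.0489 after adjustment over the 10 relations, and rho of -0.88, with P 0.00724 and 0.0724. Without m_9527 and m_9598 r was -0.73, and within the slides it was -0.89 and -0.92. The 2 dimmest arrays, m_9527 and m_9502, had medians of 108 and 116 and the 2 brightest, m_9598 and m_9528, had 192.5 and 174, with SULT1A1 values of 13.92, 13.04, 12.36 and 12.20. HSD11B1 had r of 0.72, which was 0.47 without the same 2 boars, and an adjusted exact permutation P of 0.121. SULT2A1 had 0.40. With the array median as covariate, the diet differences of SULT1A1 were 0.18 to 0.28, against 0.39 to 0.46 without it. Those of HSD11B1 were -0.17 with A_72_P006061 and -0.03 with A_72_P035496, against -0.34 and -0.16. SULT1E1 had -0.23, SULT2A1 -0.45 with A_72_P149981 and -0.44 with A_72_P165406, and HSD11B2 0.39, and the adjusted P was 1.0 for all 10 probes. What part the brightness or the cell content had in the differences between boars was not tested.

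**Figure D4:**
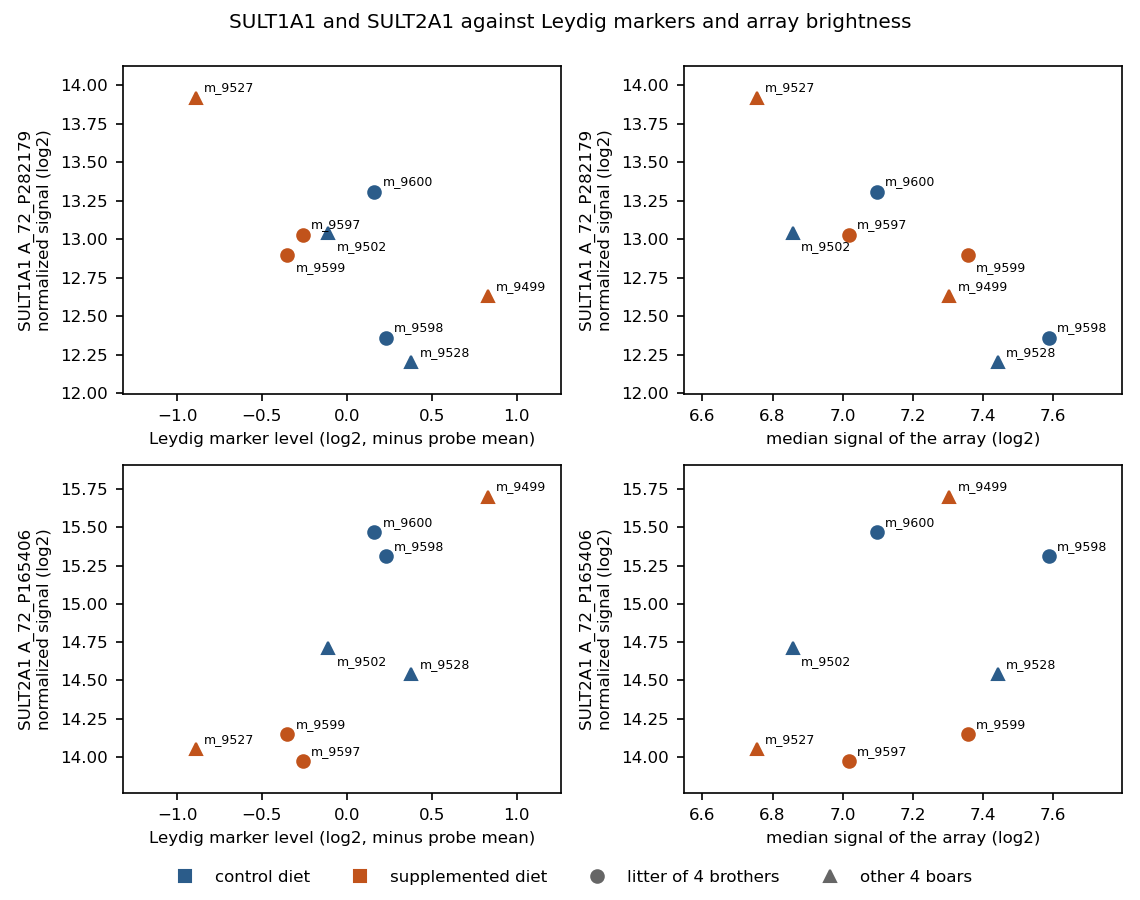
Normalized log2 signal (vertical axes) of SULT1A1 A_72_P282179 (top) and SULT2A1 A_72_P165406 (bottom) in the 8 boars against the mean level of the Leydig markers (left, log2 after taking off the mean of each probe) and the median signal of the array (right, log2). SULT2A1 is highest in m_9499, which has the highest Leydig level, and SULT1A1 is 13.92 in the dimmest array and 12.36 in the brightest.

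The named probes whose pattern over the 8 boars was most like that of each enzyme were read from the 2917 present probes with a gene name, by Pearson correlation with the brightest probe. For SULT2A1 they were TXN with 0.89, GSTO1 with 0.88 and SCARB1 with 0.88, all highest in m_9499. SCARB1, the receptor that takes up cholesterol from lipoproteins, ran from 14.96 in m_9527 to 16.46 in m_9499. For SULT1A1 they were ENG, an endothelial co-receptor of the TGF-beta family, with 0.98, HSPB1 with 0.97 and CYP2A19 with 0.97, all highest in m_9527 and lowest in m_9528. For SULT1E1 they were BLOC1S6, BLOC1S5 and STK26 with 0.99, 0.98 and 0.96, all highest in m_9528 and lowest in m_9502. For HSD11B1 they were ITPK1, EEF1A1 and SRSF1 with 0.99, 0.98 and 0.97, and for HSD11B2 VSTM4, ACACA and ST3GAL3 with 0.91, 0.84 and 0.83. These correlations are the highest of 2917 over 8 shared arrays and are given as a description.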

How the data were processed

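The authors deposited, per boar, the scanner output of Agilent Feature Extraction 10.5.1.1 (per the file headers), whose spot intensity is not normalized between arrays, with flags for spots above background, saturated or uneven. The authors also deposited a table of normalized log2 values for 35258 probes, which had a correlation of 1 with the values used here in every boar and served as an alternative.

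Log2 gMedianSignal was quantile-normalized without background subtraction and spots of a probe were averaged. A model with the diet alone was fitted in R 4.3.3 by lmFit and eBayes of limma 3.58.1, and two-sided P were adjusted by Benjamini-Hochberg for all 36982 probes present. Exact permutation tests, which exchanged boars without regard to litter, and figures used Python 3.11.15, scipy 1.17.1 and matplotlib 3.10.9. On simulated data for the diet comparison, 85% of 200 changed probes of 36982 were recovered at 4-fold and 26.5% at 2-fold, and 5.12% of unchanged probes had a P under 0.05. The simulated noise was normal and independent between probes, without effects of slide, litter or array brightness, so these rates need not hold for the real arrays.

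Of 3239 probes with a RefSeq accession, 2628 matched the gene table of Sscrofa11.1, which was used for names only. With the study's gene table, 3063 probes were named. The probes named are all of the 5 genes, those of the lists with a P under 0.05 or in the gene table of the study, and the 3 named probes most like each gene. Beyond this rule, the other partner genes and the markers INSL3, CYP11A1, CYP19A1 and HSD3B1 were chosen for mention after their values were seen. The genes, lists and tests were chosen with earlier results of these data known. The replicates are boars, and their number limits the precision. Alternatives were other signal columns and scalings, filters, tests, array weights, litter groups and leaving out each boar. The places of the slide as a block and the array median as covariate were chosen after seeing the data. Sperm RNA-Seq was not analysed here.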

Additional observations from a re-analysis of the deposited data

Results flagged for a closer look

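Within the 4 boars of a diet, 2 values stood apart by Dixon's criterion at the 95% level, of 24 sets of 4 boars tested, where chance gives about 1.2. The control boar m_9502 had the lowest HSD11B1 value with probe A_72_P006061, 6.60 against 7.54 to 7.73 in the other controls. The supplemented boar m_9499 had the highest SULT2A1 value with probe A_72_P165406, 15.70 against 13.97 to 14.15 in the other supplemented boars.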

How the results depend on the processing

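Leaving out 1 boar kept the direction of the diet difference in 79 of 80 values and the other settings in 128 of 130, and all adjusted P lay between 0.192 and 1.0. With a boar left out, the difference of HSD11B2 ran from -0.02 (without m_9502) to 0.49 (without m_9598). It was -0.02 among the brothers and 0.59 among the other 4 boars. The difference of SULT2A1 A_72_P165406 was 0.24 among the other 4 boars. The interaction for SULT2A1 A_72_P149981 ran from -2.13 to 0.38 (without m_9499), and over all 10 probes 62 of 80 interactions kept their sign. With a P under 0.05 there were 0 to 3 of the 10 probes with a boar left out (3 without m_9499, 2 without m_9502). There were 5 with array weights, which gave m_9502 the lowest weight of 0.316, and 3 among the brothers, with both SULT2A1 probes among these. Of the partner probes the count, 1 with all boars, was 1 to 7 with a boar left out (7 without m_9502), 7 with array weights, 2 with gProcessedSignal, with all probes kept, with the ordinary equal-variance test and among the brothers, and 0 among the other 4 boars. Over all present probes, where it was 689, it was 339 (without m_9528) to 6155 (without m_9502). The count was 369 without m_9598, 438 without m_9527, 751 without m_9499 and 1213 without m_9600. It was 5830 with array weights, 2381 among the brothers and 359 among the other boars. After adjustment 0 to 1 probes passed with a boar left out, 1 with array weights and 3 among the brothers, against 0 with all boars. Of the 10 probes 0 to 4 had a litter P under 0.05 with a boar left out (4 without m_9528), and the matching counts over all present probes are not given here. With a boar left out the interaction rests on 1 boar in a group, so no count is given for it. With the litter (slide) or the neighbouring places as a block, 0 of the 10 probes had a P under 0.05. By replicate number, no paired analysis was possible because the numbers were given in accession order and pair no boars.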
